A study of Mus musculus with 8 samples.

Results

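Skeletal muscle fiber genes were followed in pericytes and SMCs isolated from hindlimb muscle of mice, as 9 genes matched by symbol among the 37979 genes measured: Myh1, Myh4, Mylpf, Acta1, Tnnt3, Tnnc2, Atp2a1, Ckm and Mb. Each symbol matched 1 gene, and all 9 were among the 27414 genes with a value above 0 in at least 1 library. The cells came from Ai14+/-;SM22α-Cre+ mice of both sexes, aged 3 to 4 months, in which Cre driven by the SM22α promoter turns on the red fluorescent protein tdTomato from 1 Ai14 allele. Both groups therefore carry the same alleles and no treatment. DAPI-low cells without CD31 or CD45 staining and with PDGFRβ were sorted as pericytes where tdTomato was absent and as SMCs where it was present, and several sorts were combined into each library. There were 4 libraries of each group, described as biological replicates, and the labels put all 8 in the same batch. A pericyte that had once used the SM22α promoter would fall in the SMC gate, and strain is not given in the sources used here.

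Muscle fibers are large multinucleate cells whose sarcomeres shorten when myosin in the thick filament pulls on actin in the thin filament. Calcium released from the sarcoplasmic reticulum binds troponin C and opens the thin filament to myosin, and a calcium pump then returns the calcium to the store. Creatine kinase and myoglobin serve the energy and oxygen supply of the same fibers. The 9 genes encode fast-twitch or pan-fiber forms of these proteins, which rank among the most abundant transcripts of whole skeletal muscle. Pericytes and SMCs are vascular mural cells, and neither is known to build sarcomeres.

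The deposited values are FPKM, fragment counts scaled to transcript length and to the number of mapped fragments, and tests used log2(FPKM + 1). Between 1068 and 1980 low values of single-transcript genes were checked in each library, and 98.0 to 98.9% of them lay within 0.05 of a whole number of fragments. The size of that step put the libraries at about 21.6 to 26.5 × 1e6 fragments. The FPKM of a library summed to 656405 to 782014 in 7 libraries and to 1190435 in pericytes replicate 2. Without that library the differences of the 2 fiber genes called below were 0.83 for Mylpf (q = 0.00727 by limma) and 0.98 for Atp2a1 (q = 0.0357). The sorting genes overlapped between the groups, with Pdgfrb at 3.21 to 17.6 FPKM in pericytes and 15.6 to 91.5 FPKM in SMCs (q = 0.0973 by limma), and Tagln, which encodes SM22α, at 165 to 551 and 500 to 1569 FPKM (q = 0.110). Pecam1, which encodes the gated CD31, was at 25.0 to 59.7 FPKM in pericytes and 102 to 301 FPKM in SMCs (q = 0.00873). Ptprc, which encodes the CD45 that the gate removes, was at 80.6 to 230 FPKM in pericytes and 4.34 to 11.9 FPKM in SMCs. At a limma q below 0.05, 10.6% of all genes tested were higher in pericytes and 11.2% higher in SMCs. Of 10 lymphocyte genes 9 passed as higher in pericytes, and Cd4 did not pass (q = 0.0747 by limma). The 10 genes summed to 1796 to 3436 FPKM there and 31.6 to 62.5 FPKM in SMCs. Of 9 endothelial genes 7 passed as higher in SMCs, with sums of 364 to 1169 FPKM against 88.2 to 155 FPKM. Of 8 fibroblast genes 7 passed as higher in SMCs, with sums of 5004 to 7653 against 1161 to 2006 FPKM. The remaining fibroblast gene, Dcn, went the other way, at 509 to 1165 FPKM in pericytes and listed at 0 in every SMC library, so those sums mix opposite directions. In bulk RNA, fewer cells of a type and less RNA per cell cannot be told apart.

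Some fiber genes have close relatives elsewhere in the genome, so the first question was how far short reads can separate them. Acta1 encodes the actin of skeletal muscle and Acta2 that of smooth muscle, and their coding sequences were 85.4% identical over 1134 bases. The stretch below is the 100-base window of the coding sequence, bases 970 to 1069, in which the pair differed least, with the 8 differing bases in capitals (GENCODE version 1, NCBI Build 37).
Acta1: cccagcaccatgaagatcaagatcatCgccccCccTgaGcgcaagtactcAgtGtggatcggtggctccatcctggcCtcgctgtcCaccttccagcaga
Acta2: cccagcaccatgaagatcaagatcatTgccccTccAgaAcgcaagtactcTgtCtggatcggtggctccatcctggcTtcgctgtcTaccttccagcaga
Of all 50-base stretches of Acta1, 2.00% occurred in another gene, most often Actb. Acta2 was at 330 to 1258 FPKM in pericytes and 1158 to 3291 FPKM in SMCs, which is 25.6 to 227 times the level of Acta1 in the same library. Stretches were compared only between protein-coding transcripts, each read on its own strand. On that measure Ckm, Tnnt3, Tnnc2, Mylpf and Mb shared no 50-base stretch with another gene, and Atp2a1 shared 0.117%. Exon overlaps with genes on the opposite strand are not counted here. Those of Tnnc2, Atp2a1, Ckm, Mb and Myh1 are given below. The myosin heavy chains were less separable: 26.7% of the stretches of Myh1 and 18.9% of those of Myh4 were shared, Myh1 most with Myh2 (91.1% coding identity) and Myh4 most with Myh1 (90.2%). The reads were paired and longer than 50 bases, so these shares are not the shares of reads that fit several genes. How reads that fit several genes were assigned is not given in the sources used here, so the values of Myh1 and Myh4 are uncertain.

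Of the 9 fiber genes, 2 passed the test, both higher in pericytes: Mylpf and Atp2a1. With the replicate number as a block in the fit, Mylpf lost its call (q = 0.0521 by limma). In that fit Tnnt3 was called lower in pericytes (q = 0.0268). Among all genes tested 10.6% were called higher in pericytes and 11.2% higher in SMCs at a limma q value below 0.05, so about 1 in 5 genes differed in either direction (21.8%) and a count of 2 in 9 is near that background. No fiber gene was called higher in SMCs by limma without the block, while 2 of them, Tnnt3 and Mb, were lower in pericytes at an unadjusted p below 0.05. The median log2 difference (pericytes minus SMCs) over the 9 genes was -0.23, against 0.02 over all genes tested. The groups did not overlap for Mylpf and Atp2a1, and 24.6% of all genes did not overlap. The direction of the call was therefore not shared by the group as a whole.

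**Figure D1:**
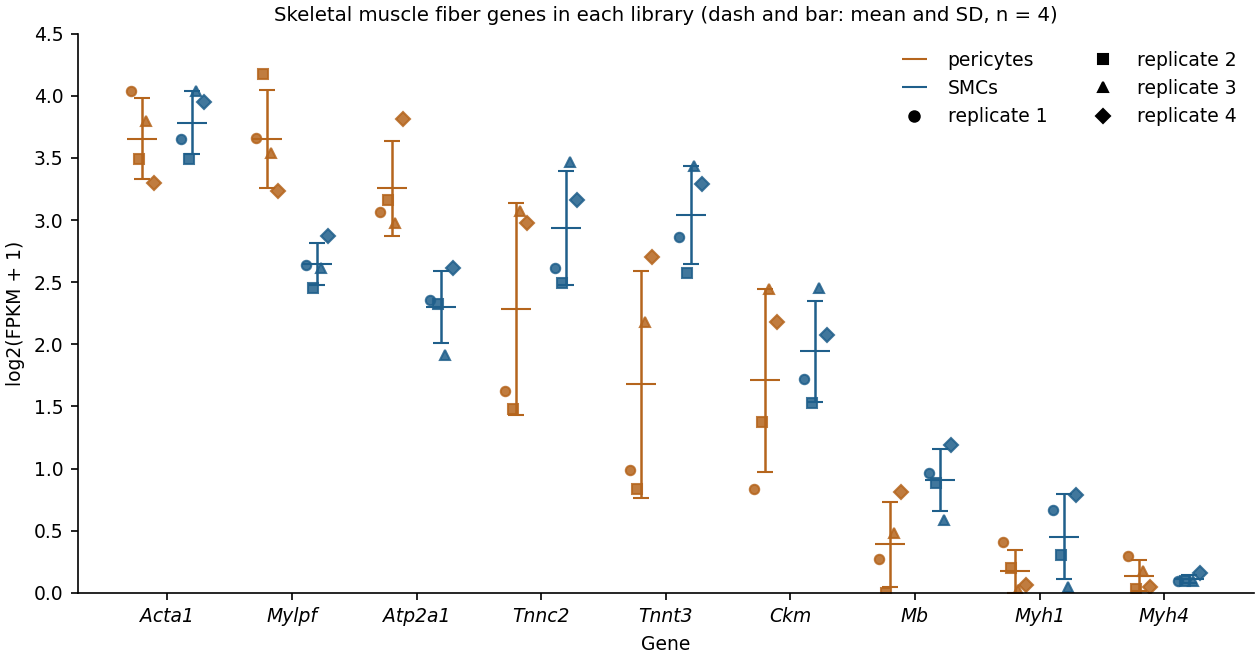
The level of each fiber gene as log2(FPKM + 1) in the 4 pericyte and 4 SMC libraries, with the mean and SD as a dash and bar and the replicate number as the symbol. The pericyte and SMC points are apart for Mylpf and Atp2a1 and overlap for the other 7 genes.

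Mylpf, the regulatory light chain of fast myosin, lies at chr7:134355122-134357812 on the plus strand (NCBI Build 37). Its level was 11.6, 17.1, 10.6 and 8.38 FPKM in pericytes replicates 1 to 4 and 5.24, 4.48, 5.12 and 6.30 FPKM in SMCs replicates 1 to 4. All pericyte libraries were above all SMC libraries, and the highest was pericytes replicate 2. The means were 11.9 ± 3.68 and 5.29 ± 0.756 FPKM (SD, n = 4), a ratio of 2.26, and the log2 difference was 1.01 ± 0.20 (SE) with q = 0.0108 by limma. The call was lost with the replicate number as a block in the fit (q = 0.0521). A two-sided exact permutation test of the 8 values gave p = 0.0286, the smallest that 70 labelings allow. Between 61 and 186 fragments stood behind each value, estimated from the longest transcript.

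The end of Mylpf faces the end of Sept1, a septin gene on the opposite strand, across 148 bases. Sept1 was at 112, 168, 134 and 134 FPKM in pericytes and at 3.75, 3.69, 6.31 and 4.71 FPKM in SMCs (log2 difference 4.63, q = 1.24e-05 by limma). The models share no exon base. Within the groups the order of the libraries differed: Sept1 and Mylpf were both highest in pericytes replicate 2, but Sept1 was lowest of the pericyte libraries in replicate 1, where Mylpf was second highest, and in SMCs they peaked in replicates 3 and 4. The amplification and Nextera kits used keep no record of strand, so a fragment that ran past the end of one gene into the other could not be told from the other gene's own. Whether this took part in the difference of Mylpf was not tested, and neither was the part of the lymphocyte genes, which also stood higher in pericytes.

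Atp2a1, the calcium pump of the fast-fiber sarcoplasmic reticulum (SERCA1), lies at chr7:133589372-133606622 on the minus strand. It measured 7.36, 7.94, 6.89 and 13.1 FPKM in pericytes and 4.14, 3.997, 2.77 and 5.14 FPKM in SMCs. Again the groups were apart, with pericytes replicate 4 well above the other libraries. The means were 8.82 ± 2.88 and 4.01 ± 0.970 FPKM (SD, n = 4), a ratio of 2.20, with a log2 difference of 0.95 ± 0.22 (SE) and q = 0.0211 by limma (exact permutation p = 0.0286). The call was lost when every library was rescaled to the same sum (0.78, q = 0.0902), without SMCs replicate 2 (0.96, q = 0.0511) and without SMCs replicate 3 (0.82, q = 0.0504). These values rest on about 225 to 1111 fragments a library.

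Of the 3483 exon bases of Atp2a1, 763 also lie in exons of Rabep2, an endosomal trafficking gene on the opposite strand. Rabep2 was at 27.4, 15.6, 28.1 and 19.3 FPKM in pericytes and at 8.43, 7.99, 14.8 and 13.5 FPKM in SMCs, a log2 difference of 0.96 (q = 0.0403 by limma). Reads from the shared bases cannot be assigned to either gene without strand, and their part in the value of Atp2a1 was not tested. The other pumps of the family showed no call: Atp2a2, the pump of slow fibers and smooth muscle, was at 8.32 to 10.2 FPKM in pericytes and 9.03 to 11.9 FPKM in SMCs (q = 0.372), and Atp2a3, a pump of non-muscle cells, at 25.9 to 149 and 11.6 to 140 FPKM (q = 0.590). Both neighbors, Sept1 and Rabep2, were chosen after the values of the fiber genes were seen.

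**Figure D2:**
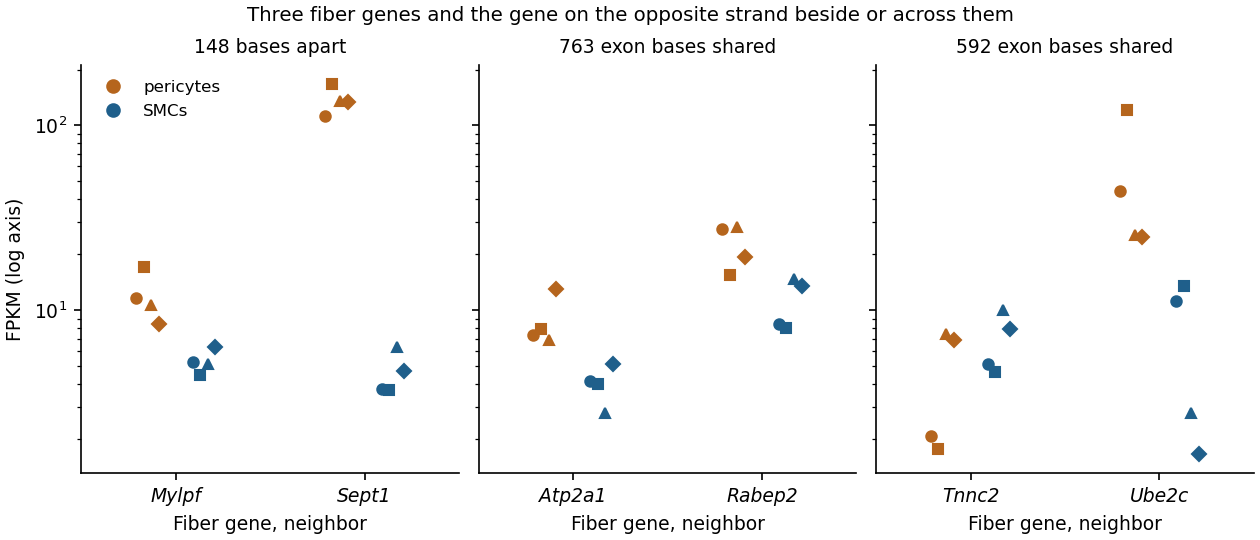
FPKM on a log axis of Mylpf, Atp2a1 and Tnnc2, each beside the neighbor on the opposite strand, in 4 pericyte and 4 SMC libraries, with 1 point per library and the symbols as for the levels by library. Sept1 and Rabep2 stand higher in pericytes together with Mylpf and Atp2a1, while Ube2c stands higher in pericytes and Tnnc2 overlaps between the groups.

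The start regions of Mylpf and Atp2a1 are shown because these 2 genes were called higher in pericytes, though Mylpf was lowest in pericytes replicate 4, where Atp2a1 was highest. Acta1 is shown as the most abundant member that was not called (RefSeq, GRCm38.p6, 250 bases before to 50 after the start, gene strand). Capitals mark matches to the E box (CANNTG, its own reverse complement, the motif of MyoD-type factors), the CArG box of serum response factor, the MEF2 motif and TATAAA.
Mylpf, chr7:127211358-127211657, plus strand: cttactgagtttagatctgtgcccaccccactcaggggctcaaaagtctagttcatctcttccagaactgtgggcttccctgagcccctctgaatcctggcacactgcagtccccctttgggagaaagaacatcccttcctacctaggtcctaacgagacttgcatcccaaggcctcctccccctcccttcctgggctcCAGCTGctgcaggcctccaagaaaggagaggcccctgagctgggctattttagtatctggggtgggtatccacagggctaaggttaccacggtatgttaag
Atp2a1, chr7:126463024-126463323, minus strand: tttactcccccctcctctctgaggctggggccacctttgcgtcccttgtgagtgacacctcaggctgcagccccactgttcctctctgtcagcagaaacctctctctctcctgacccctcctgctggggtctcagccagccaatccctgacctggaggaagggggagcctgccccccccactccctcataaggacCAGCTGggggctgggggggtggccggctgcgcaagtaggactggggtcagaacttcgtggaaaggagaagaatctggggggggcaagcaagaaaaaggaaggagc
Acta1, chr8:123894726-123895025, minus strand: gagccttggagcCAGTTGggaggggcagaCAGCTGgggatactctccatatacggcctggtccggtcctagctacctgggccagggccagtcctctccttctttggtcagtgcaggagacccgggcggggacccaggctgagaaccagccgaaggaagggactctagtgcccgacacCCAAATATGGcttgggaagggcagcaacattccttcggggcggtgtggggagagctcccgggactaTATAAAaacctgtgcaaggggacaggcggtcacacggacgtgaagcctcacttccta
The table held start regions for 8 of the 9 fiber genes, all but Tnnt3. An E box stood in 7 of the 8, a motif that 72.3% of 32851 promoters hold. The single E box of Mylpf starts at position -51 and that of Atp2a1 at -55, both with the letters CAGCTG. A CArG box stood in 2 (Acta1 and Myh4; 1.63% of promoters), a MEF2 motif in 2 (Myh1 and Myh4; 3.19%) and TATAAA in 3 (13.6%), and in Myh1 and Myh4 the MEF2 match overlaps a TATAAA. These are letter matches on either strand, not measured binding.

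Acta1, the actin of the sarcomeric thin filament, was at a like level in both groups. It measured 15.5, 10.3, 12.9 and 8.81 FPKM in pericytes and 11.6, 10.3, 15.4 and 14.5 FPKM in SMCs. The groups overlapped throughout, and the log2 difference was -0.13 ± 0.19 (SE; q = 0.724 by limma, exact permutation p = 0.571). It made up 18.7 to 39.6% of the summed FPKM of the 9 genes in a library. Its level was at percentile 76.9 of all genes tested, the highest of the 9 fiber genes, with 262 to 464 fragments behind each value. Actc1, the cardiac and developmental actin, varied far more, from listed at 0 to 13.7 FPKM in pericytes and from 0.195 to 7.94 FPKM in SMCs (q = 0.831), and Actg2, the enteric smooth muscle actin, was at 1.53 to 7.82 and 2.77 to 5.96 FPKM (q = 0.705).

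Tnnt3 and Tnnc2, the fast troponins among the 9 genes, had lower means in pericytes, and neither passed the test. Tnnt3, which anchors troponin to tropomyosin, was at 0.985, 0.786, 3.54 and 5.51 FPKM in pericytes and at 6.27, 4.96, 9.84 and 8.79 FPKM in SMCs. Only pericytes replicate 4 reached into the SMC range. The means were 2.70 ± 2.25 and 7.47 ± 2.24 FPKM (SD, n = 4), with a log2 difference of -1.36 ± 0.45 (SE), q = 0.0762 by limma and an exact permutation p of 0.0571. Tnnt3 was called lower in pericytes when only genes with 1 FPKM in at least 4 libraries were tested (q = 0.0244) and without pericytes replicate 4 (-1.71, q = 0.0270). With the replicate number as a block in the fit it was also called lower (q = 0.0268 by limma). Tnnt1, the slow-fiber form, was at 2.38 to 6.70 FPKM in pericytes and 4.37 to 8.74 FPKM in SMCs (log2 difference -0.66, q = 0.162), and it was called lower in pericytes after rescaling to equal sums (-0.91, q = 0.0288) and without pericytes replicate 2 (-0.87, q = 0.0447).

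Tnnc2, the fast calcium-binding troponin, measured 2.08, 1.78, 7.41 and 6.87 FPKM in pericytes and 5.11, 4.64, 10.1 and 7.95 FPKM in SMCs. Replicates 1 and 2 were the lower libraries in both groups, and the ranges overlapped (log2 difference -0.65 ± 0.44 SE, q = 0.401 by limma, exact permutation p = 0.257). Of its 800 exon bases, 592 lie in exons of Ube2c, a cell-division ubiquitin enzyme on the opposite strand. Ube2c was at 43.9, 120, 25.4 and 24.8 FPKM in pericytes and 11.2, 13.5, 2.78 and 1.66 FPKM in SMCs (q = 0.0340). Its order over the libraries differs from that of Tnnc2, which was lowest in pericytes replicate 2, where Ube2c was highest. Any share of reads the 2 genes exchange was not tested.

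The fast myosin heavy chains were below 1 FPKM in all 8 libraries. Myh1, the type IIx chain, was at 0.329, 0.147, 0.0165 and 0.0471 FPKM in pericytes and at 0.592, 0.236, 0.0314 and 0.724 FPKM in SMCs (log2 difference -0.28, q = 0.368 by limma, and -0.95, q = 0.376 with a pseudocount of 0.1). In both groups replicate 3 was lowest, with an estimated 2.4 fragments in pericytes and 4.6 in SMCs, against 111 in SMCs replicate 4. Of the 6354 exon bases of Myh1, 516 also lie in exons of Gm12300 on the opposite strand. Gm12300 was at 0 to 0.0876 FPKM in pericytes and 0 to 0.298 FPKM in SMCs, highest in SMCs replicate 4. Its part in the value of Myh1 was not tested. Myh4, the type IIb chain, was at 0.226, 0.0245, 0.131 and 0.0331 FPKM in pericytes and at 0.0709, 0.0654, 0.0685 and 0.120 FPKM in SMCs (log2 difference 0.03, q = 0.851). Its direction turned without pericytes replicate 1 (-0.026) and under quantile scaling (-0.000492), so no direction can be given. Myh4 was the lowest of the 9 genes in mean level in both groups, and Acta1 was 68.4 to 420 times as high in the same library. Other sarcomeric heavy chains were low as well: Myh2 (type IIa) reached 0.118, Myh7 (slow) 0.242, Myh3 (embryonic) 0.374, Myh8 (perinatal) 0.130 and Myh13 (extraocular) 0.541 FPKM. Myh13 did not overlap between the groups, at 0.108 to 0.541 FPKM in pericytes and 0 to 0.0406 FPKM in SMCs (q = 0.087 by limma). With a pseudocount of 0.1 it was called higher in pericytes (1.56, q = 0.0169).

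Ckm, the muscle creatine kinase, was at 0.787, 1.60, 4.44 and 3.53 FPKM in pericytes and at 2.30, 1.88, 4.46 and 3.21 FPKM in SMCs. The groups overlapped, and replicates 3 and 4 were above replicates 1 and 2 in each (log2 difference -0.23 ± 0.39 SE, q = 0.743 by limma). Without pericytes replicate 1 the difference turned to 0.056. Ckb, the creatine kinase of brain and smooth muscle, was far higher and was lower in pericytes, at 122 to 238 FPKM against 319 to 580 FPKM (log2 difference -1.36 ± 0.26 SE, q = 0.00877 by limma). Ckm shares 451 of its 1415 exon bases with A930016O22Rik on the opposite strand, which stayed at or below 0.130 FPKM in every library.

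Mb, the oxygen-binding myoglobin, was at 0.208, 0, 0.394 and 0.752 FPKM in pericytes and at 0.957, 0.847, 0.501 and 1.29 FPKM in SMCs. It is listed at 0 in pericytes replicate 2, where 3 fragments would have given 0.165 FPKM, and no library held more than an estimated 29 fragments. The log2 difference was -0.52 ± 0.20 (SE; q = 0.116 by limma, exact permutation p = 0.0571), and without pericytes replicate 4 it was called (-0.66, q = 0.0482). With a pseudocount of 0.1 the difference was -1.50 (q = 0.133). Of the 1252 exon bases of Mb, 64 also lie in exons of Apol6 on the opposite strand. Apol6 was at 0.301 to 1.07 FPKM in pericytes and 0.398 to 2.23 FPKM in SMCs (q = 0.446 by limma). Its part in the value of Mb was not tested.

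The order of levels per length was not the same in the groups. In pericytes Mylpf (11.9 ± 3.68 FPKM) and Acta1 (11.9 ± 2.94) led, followed by Atp2a1 (8.82 ± 2.88), Tnnc2 (4.54 ± 3.02), Tnnt3 (2.70 ± 2.25) and Ckm (2.59 ± 1.69; SD, n = 4), and the ranges of neighbors in this order overlapped. In SMCs Acta1 (12.9 ± 2.42) stood apart from Tnnt3 (7.47 ± 2.24) and Tnnc2 (6.94 ± 2.55), followed by Mylpf (5.29 ± 0.756), Atp2a1 (4.01 ± 0.970) and Ckm (2.96 ± 1.14). Mb, Myh1 and Myh4 came last in both. Together the 9 genes summed to 31.4 to 48.3 FPKM in a library, or 0.00333 to 0.00690% of all FPKM, and 4 to 7 of the 9 reached 1 FPKM.

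A common order of the libraries was seen in 3 of the genes. Ckm, Tnnt3 and Tnnc2 were each higher in replicates 3 and 4 than in replicates 1 and 2, in pericytes and in SMCs alike. In the same order of replicates, the summed FPKM of 5 Schwann cell genes was 147, 103, 657 and 534 in pericytes and 125, 108, 344 and 330 in SMCs. The summed FPKM of 12 satellite cell and myogenic genes ran the other way, at 128, 178, 10.8 and 75.9 in pericytes and 174, 145, 44.6 and 71.2 in SMCs. So did the sums of 6 erythroid genes (1034, 3623, 990.2 and 125, then 503, 818, 199 and 128 FPKM) and of 5 developmental fiber genes (36.3, 65.6, 9.63 and 14.8, then 19.0, 19.3, 10.2 and 10.3 FPKM). Like the Schwann cell sums, those of 3 other lists were higher in replicates 3 and 4 of both groups: 10 pericyte genes (64.6, 87.4, 95.7 and 145 FPKM in pericytes, 170, 168, 352 and 479 FPKM in SMCs), 8 macrophage genes (166, 294, 340 and 300, then 569, 510, 599 and 756 FPKM) and 8 immediate early genes (5759, 5871, 6059 and 6021, then 6212, 5326, 9655 and 8755 FPKM). Neither the Schwann cell nor the satellite cell list held a gene that differed between the groups by limma (1 Schwann cell gene and 0 satellite cell genes at an unadjusted p below 0.05). The part of other cells in the fiber gene levels was not tested. Mylpf, Acta1 and Atp2a1 did not share this order.

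**Figure D3:**
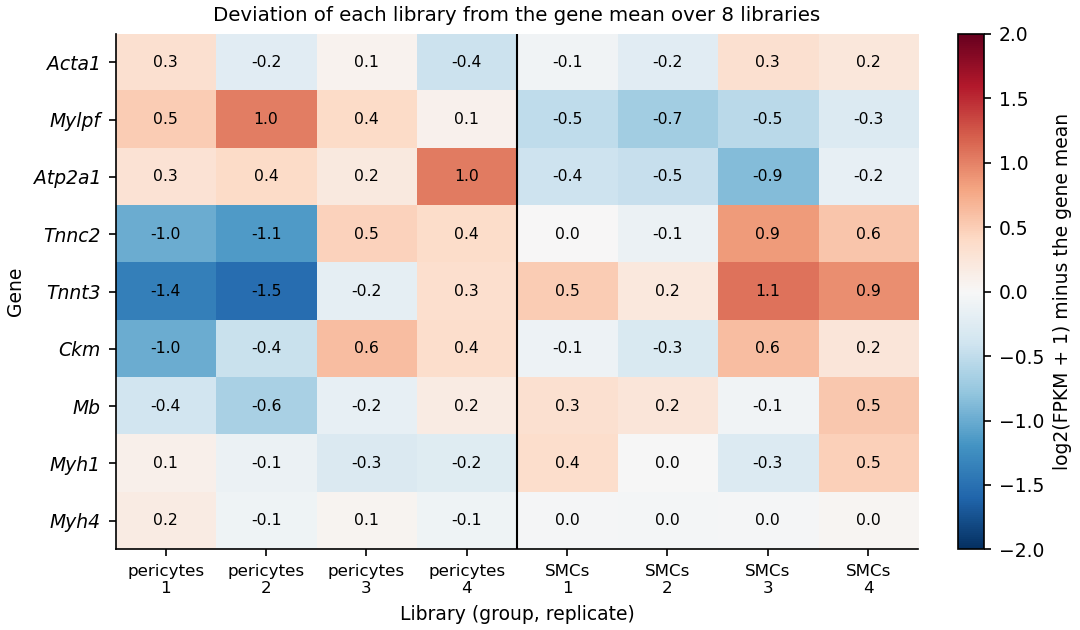
Deviation of each library from the gene's mean log2(FPKM + 1) over 8 libraries, in log2 units, with genes as rows and libraries as columns. Tnnc2, Tnnt3 and Ckm are lower in replicates 1 and 2 than in replicates 3 and 4 of the same group, while Mylpf and Atp2a1 change sign between the groups.

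Other fiber genes, 57 entries in 6 lists, moved in both directions as well. Of these 4 were higher in pericytes and 9 higher in SMCs, and their median log2 difference was -0.09. Both shares can be read against the 10.6% and 11.2% of all genes.

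In the thin filament and Z disc list, 1 of 12 genes was higher in pericytes and 1 was lower. Actn2, the α-actinin of the Z disc, was at 3.33, 8.27, 3.33 and 4.31 FPKM in pericytes and 0.491, 0.396, 0.273 and 0.525 FPKM in SMCs (log2 difference 1.96 ± 0.25 SE, q = 0.00142 by limma, and 3.16 with a pseudocount of 0.1). Tcap, which caps titin at the Z disc, was lower in pericytes, at 1.91 to 4.99 FPKM against 5.91 to 19.3 FPKM (-1.46 ± 0.37 SE, q = 0.0285). Its call was lost without SMCs replicate 1 (q = 0.0624), SMCs replicate 3 (q = 0.0655), pericytes replicate 1 (q = 0.0733) or pericytes replicate 3 (q = 0.0729), as was the count of 2 when SMCs replicate 1, SMCs replicate 3 or pericytes replicate 3 was left out (1 called). Tnni2, the fast inhibitory troponin, was at 4.38 to 15.7 FPKM in pericytes and 2.64 to 5.02 FPKM in SMCs (1.003, q = 0.0895), and it was called higher in pericytes without pericytes replicate 1 (1.28, q = 0.0268) and under the filter at 1 FPKM (q = 0.0374). Actn3, the fast-fiber α-actinin, was at 0.870 to 8.89 and 6.25 to 11.3 FPKM (-0.88, q = 0.309).

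Of the 13 genes of excitation and calcium handling, 1 was higher in pericytes and 1 lower. Cacna1s, the voltage sensor of the transverse tubule, was at 2.97, 5.54, 6.93 and 6.39 FPKM in pericytes and 1.26, 1.31, 0.636 and 0.460 FPKM in SMCs (log2 difference 1.73 ± 0.26 SE, q = 0.00307 by limma). Casq1, the calcium buffer of the fast-fiber reticulum, was at 0.543 to 1.87 FPKM in pericytes and 2.74 to 5.02 FPKM in SMCs (-1.05 ± 0.24 SE, q = 0.0193). The call of Casq1, and with it 1 of the 2 calls of the list, was lost without SMCs replicate 3 (q = 0.0549) or SMCs replicate 4 (q = 0.0502). Jsrp1, a reticulum protein of the same junction, was at 1.23 to 5.54 and 1.66 to 6.78 FPKM (-0.31, q = 0.711).

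The energy metabolism list held the most calls, 7 of 11 genes, of which 2 were higher in pericytes and 5 lower. Cox6a2, the heart and muscle form of a cytochrome c oxidase subunit, was at 50.6, 127, 51.9 and 94.1 FPKM in pericytes and 2.27, 3.54, 2.66 and 3.54 FPKM in SMCs. Its lowest pericyte value was above all 9 members in every library, and the ratio of the means was 27.0 (log2 difference 4.26 ± 0.32 SE, q = 0.000143 by limma). Ampd1, the muscle AMP deaminase, was at 6.19, 3.99, 2.64 and 3.07 FPKM in pericytes and 0.147, 0.507, 0.482 and 0.113 FPKM in SMCs (1.88 ± 0.23 SE, q = 0.00121, and 3.39 with a pseudocount of 0.1). The partners of Cox6a2 in the same muscle-type oxidase went the other way: Cox7a1 was at 5.99 to 19.0 FPKM in pericytes and 21.5 to 43.0 FPKM in SMCs (-1.39, q = 0.0305), and Cox8b at 0.358 to 5.26 and 9.20 to 18.7 FPKM (-2.20, q = 0.0221).

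The remaining calls of that list were lower in pericytes too. Pfkm, the muscle phosphofructokinase, was at 1.61 to 4.60 FPKM in pericytes and 7.32 to 16.4 FPKM in SMCs (log2 difference -1.47, q = 0.0216 by limma), Fabp3, a fatty acid carrier, at 3.53 to 5.56 and 7.88 to 12.9 FPKM (-1.05, q = 0.00548), and Phkg1, a phosphorylase kinase subunit, at 0.244 to 0.698 and 1.31 to 2.44 FPKM (-0.96, q = 0.00326, and -1.87 with a pseudocount of 0.1). Phkg1 shares 632 of 3232 exon bases with Sumf2 on the opposite strand, which was at 3.90 to 11.2 FPKM in pericytes and 10.1 to 17.3 FPKM in SMCs. Fabp3 shares 81 of 823 exon bases with Zcchc17, also on the opposite strand. Zcchc17 was at 33.7 to 75.6 FPKM in pericytes and 39.1 to 58.9 FPKM in SMCs (q = 0.864 by limma). Cox7a1 lost its call without any of 6 libraries (q from 0.0523 to 0.0768), keeping it only without SMCs replicate 1 or pericytes replicate 2. Cox8b lost its call without SMCs replicate 1 (q = 0.0549) or SMCs replicate 3 (q = 0.0614), and Pfkm without SMCs replicate 3 (q = 0.0589), SMCs replicate 4 (q = 0.0530) or pericytes replicate 3 (q = 0.0510). Without SMCs replicate 3 the list had 4 calls. Pygm, the muscle glycogen phosphorylase, was at 4.25 to 10.4 and 11.3 to 33.9 FPKM without overlap and did not pass (-1.20, q = 0.0820), while it was called under the filter at 1 FPKM (q = 0.0293) and under quantile scaling (-1.28, q = 0.0497).

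Of 10 slow fiber entries 2 were lower in pericytes. Casq2, the calcium buffer of slow and cardiac fibers, was at 10.2 to 27.7 FPKM in pericytes and 33.2 to 95.2 FPKM in SMCs (log2 difference -1.59, q = 0.0232 by limma), and Tnnc1 (ENSMUSG00000091898), the slow calcium-binding troponin, at 0 to 0.345 and 0.615 to 1.81 FPKM (-0.79, q = 0.0203, and -2.10 with a pseudocount of 0.1). A second Tnnc1 entry (ENSMUSG00000021909) covers 1041 of the same 1051 exon bases, so the split between them is uncertain. Casq2 lost its call without SMCs replicate 2 (q = 0.0558), SMCs replicate 3 (q = 0.0507), pericytes replicate 1 (q = 0.0563) or pericytes replicate 3 (q = 0.0536), and Tnnc1 without SMCs replicate 1 (q = 0.0537), which left 1 call in each case. Pln, the inhibitor of the slow calcium pump, was at 4.38 to 15.3 and 10.5 to 52.2 FPKM (-1.27, q = 0.160). Casq2 and Pln are also used by smooth muscle.

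Of the 6 thick filament and M band genes none was called by limma, with 2 at an unadjusted p below 0.05 and 1 called after rescaling to equal sums. Myl1, the fast essential light chain and structural partner of Mylpf, was at 1.94, 4.51, 3.35 and 4.69 FPKM in pericytes and 5.27, 4.41, 9.41 and 9.59 FPKM in SMCs (log2 difference -0.81, q = 0.114). Thus the 2 fast light chains had differences of opposite sign, of which the one of Mylpf passed the test. Mybpc1, a slow myosin-binding protein, was at 0.318 to 4.15 and 1.13 to 4.997 FPKM (q = 0.579), and Myom1, an M band protein, at 0.949 to 3.32 and 1.36 to 6.70 FPKM (q = 0.476). None of 5 developmental genes was called, nor did any reach an unadjusted p below 0.05. Myl4, the embryonic and atrial light chain, was at 24.7, 49.8, 9.43 and 8.67 FPKM in pericytes and 10.0002, 9.79, 9.74 and 7.48 FPKM in SMCs (q = 0.315), and Tnnt2 at 0.148 to 2.11 and 0.292 to 1.53 FPKM (q = 0.779).

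**Figure D4:**
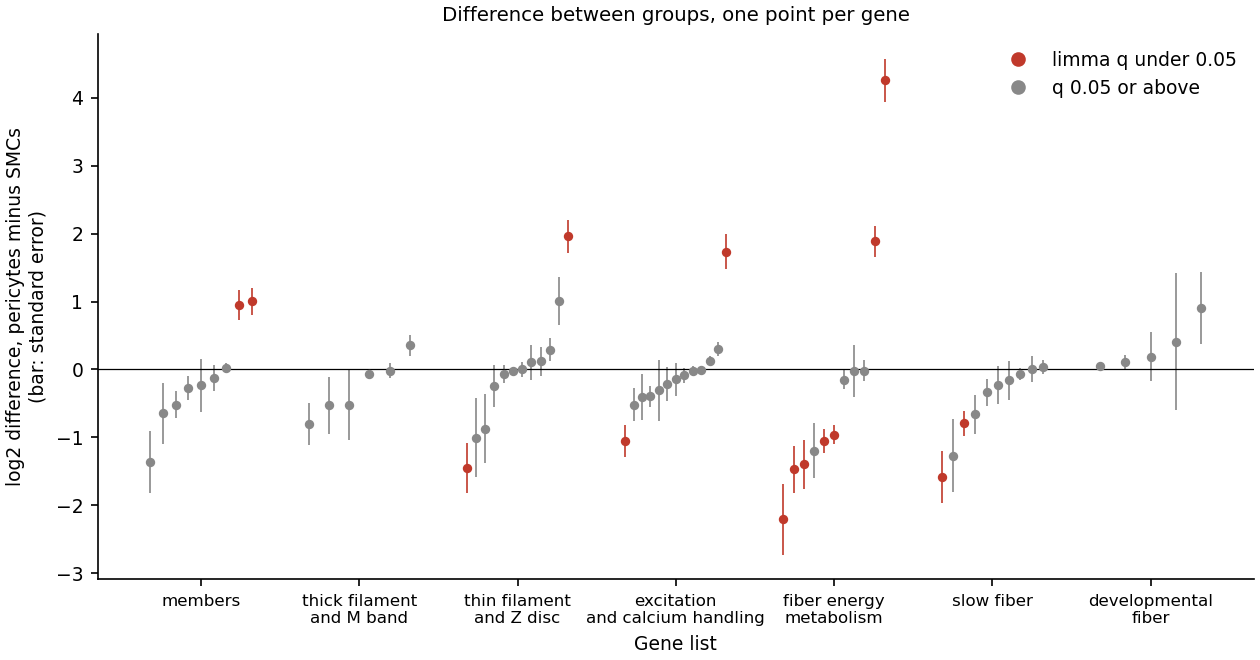
Log2 difference (pericytes minus SMCs) with its standard error for each gene, by list, from the limma fit to 4 libraries per group, with genes at a q value below 0.05 in red. Of the 9 members 2 lie above 0 in red, and the highest point is Cox6a2 at 4.26.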

How the data were processed

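RNA from 4 pericyte and 4 SMC libraries was amplified with a SMART-Seq kit and built into Nextera XT libraries. Per the labels and the study's methods, the authors aligned paired reads with Bowtie2 and TopHat to mouse NCBI Build 37 and deposited FPKM for each gene, as non-integer values with no filter. The program that computed them and strand use are not given in the sources used here. FPKM were tested as log2(FPKM + 1), a scale that understates changes of low genes, with limma 3.58.1 in R 4.3.3 and Benjamini-Hochberg adjustment over 27414 genes above 0 FPKM in at least 1 library (q below 0.05). Exact permutation tests, depth estimates, overlaps, motif searches and figures used Python 3.11.15, numpy 2.4.6, pandas 2.3.3, Biopython 1.88 and matplotlib 3.10.9. Fragments were estimated from the step of low FPKM values and the longest transcript, and cover counting error only. Gene models came from GENCODE version 1, which holds 37195 of the 37979 identifiers. The test was checked on simulated data.

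The members, gene lists and alternatives were chosen with earlier results of these data known. Named genes are the members, their paralogs, the 3 highest and every called gene of each other fiber list, the sort genes, and the 10 genes most like the members by each of 2 measures. Neighboring genes and Dcn were named after their values were seen. The rule also covers the lowest and highest gene of each cell type list, not all of which are printed. The alternatives were another pseudocount, a filter or none, 3 scalings, a replicate block, an intensity trend, the members' share without Acta1, and each library left out. Lists of macrophage, erythroid, pericyte, smooth muscle, immediate early and every-cell genes were also read. Of 8 macrophage genes 5, of 10 pericyte genes 2 and of 8 immediate early genes 5 were higher in SMCs, and 1 immediate early gene and 4 of 10 every-cell genes were higher in pericytes. No erythroid or smooth muscle gene was called by limma (0 of 6 and 4 of 10 at an unadjusted p below 0.05). In the every-cell list, 2 further genes are listed at 0 in all libraries.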

Additional observations from a re-analysis of the deposited data

Results flagged for a closer look

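In groups of 4 libraries, 96 sets of values were checked for a library far from the other 3 (Dixon's test), and 4 were found where chance would give about 4.8. Myh4 in SMCs replicate 4 was at 0.120 FPKM, with the other 3 SMC libraries between 0.0654 and 0.0709 FPKM. Tnnc1 (ENSMUSG00000021909) in SMCs replicate 1 was at 0.238 FPKM and is listed at 0 in the other SMC libraries. Atp2a2 in pericytes replicate 2 was at 10.2 FPKM, with the others between 8.32 and 8.43 FPKM. Myl4 in SMCs replicate 4 was at 7.48 FPKM, below the 9.74 to 10.0002 FPKM of the others.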

How the results depend on the processing

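Of 2 members higher in pericytes, 1 was called after rescaling to equal sums (TPM) and 1 with a replicate block, and 1 to 2 with a library left out. Of members higher in SMCs, 1 was called under the filter at 1 FPKM and 1 with the block, Tnnt3 both times, and 0 to 2 with a library left out. Same-numbered libraries deviated together with correlations of 0.0794, 0.319, 0.437 and 0.474 across 13612 genes, and 5 of 8 libraries correlated best with their own number. That hints at a tie in 3 of the 4 pairs, but 1 pair was below 0.1 and the labels tie the numbers to no shared animal or sort, so the fit without the block was kept. With the replicate block Mylpf had q = 0.0521 (1.01) and Tnnt3 q = 0.0268 (-1.36), the thin filament list had 4 calls, Pdgfrb (q = 0.00601) and Tnni2 (q = 0.0320) were called, Cox7a1 (q = 0.0650) and Cox8b (q = 0.0585) were not, and 6153 genes were called in all against 5977. Under the filter Tnnt3 had -1.36, and under TPM Atp2a1 had 0.78. Under TPM the calls over all genes split into 2117 higher in pericytes and 3734 higher in SMCs, against 2917 and 3060, and the thick filament list had 1 call. Over the left-out libraries those 2 counts ran from 2316 to 3302 and from 2407 to 3234. Testing all listed genes left 1 call in the thin filament list, 4 in the energy list and 1 in the slow fiber list, and the filter left 1 in the slow fiber list. The smooth muscle list, with no call, had 3 under TPM, 4 under the filter, 2 under quantile scaling and 2 with the block. The pericyte list, with 2, had 5 under the filter, 7 with the block and 1 over all listed genes, where the immediate early list had 2, and the erythroid list had 1 with the block. The causes of these changes were not tested.

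With a library left out, the log2 differences ran from -0.48 to 0.056 for Ckm, -0.26 to -0.00667 for Acta1, -0.026 to 0.060 for Myh4, -1.71 to -1.08 for Tnnt3, -0.91 to -0.38 for Tnnc2, 0.83 to 1.15 for Mylpf, 0.76 to 1.06 for Atp2a1, -0.66 to -0.39 for Mb and -0.41 to -0.17 for Myh1. List counts ran from 1 to 2 (thin filament), 1 to 3 (excitation), 4 to 7 (energy) and 1 to 3 (slow fiber). Those of other lists ran from 3 to 4 (macrophage), 3 to 5 (immediate early), 1 to 3 (pericyte), 2 to 6 (every cell) and 0 to 1 (smooth muscle). Signs turned for Myh4 under quantile scaling (-0.000492), for Tnnc1 (ENSMUSG00000021909) without pericytes replicate 4 (-0.029, range up to 0.11), for Tnnt2 without pericytes replicate 1 (-0.00580), and for Actc1 without SMCs replicate 3 (-0.19, range up to 1.23) or pericytes replicate 2 (-0.061). The members' mean share of summed FPKM without Acta1 was 0.00386% in pericytes and 0.00401% in SMCs. Of 1097 values computed, 990 kept their direction and side of the threshold or, for counts, stayed within 1.5 times the value reported. Depth limits Myh1, Myh4 and Mb, which rest on 0 to about 111 estimated fragments a library.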

Other observations

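The genes whose log2(FPKM + 1) most resembled the mean of the 9 fiber genes over the 8 libraries, among the 13606 non-member genes that averaged 1 FPKM or more, were not fiber genes. Gypc, a red cell membrane glycoprotein, had a Pearson r of 0.972, at 17.9 to 35.0 FPKM in pericytes and 21.2 to 39.3 FPKM in SMCs, followed by Rtn1 (0.959), Iqce (0.957), Tmem127 (0.952), Nfkbiz (0.952), Gm16229 (0.952), Tef (0.949), Kazn (0.949), Spnb2 (0.945) and Bicd2 (0.937). By deviations from the group means the 10 were Tbc1d2b (0.989), Eif4g1 (0.985), Pcnx (0.982), Etv6 (0.981), 2810453I06Rik (0.979), Rtn1 (0.978), Camk1d (0.978), Ndrg1 (0.975), Tsku (0.975) and Kdm4b (0.974), all lower in replicates 1 and 2 than in replicates 3 and 4 of the same group. The points share 8 libraries, and these values are a description of likeness picked from many genes. The members fell into those that went together and those that did not. Against the mean of the other 8, r was 0.813 for Tnnc2, 0.729 for Ckm, 0.574 for Mb, 0.511 for Tnnt3, -0.000743 for Acta1, -0.07 for Myh1, -0.13 for Myh4, -0.36 for Atp2a1 and -0.66 for Mylpf. By deviations from the group means r was 0.855 for Tnnt3, 0.828 for Tnnc2, 0.712 for Ckm, 0.617 for Mb and 0.248 for Atp2a1, and below 0 for Acta1, Myh1, Myh4 and Mylpf.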
